A study of Mus musculus with 6 samples.

Results

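TRIM proteins are a family of E3 ubiquitin ligases and related scaffolds named for a tripartite motif of a RING domain, B-box domains and a coiled coil. Many TRIM genes are switched on by interferon and act against viruses or tune the pathways that sense them, while others act in striated muscle, at chromatin or on microtubules. In the heart the best known members are the muscle ring finger genes Trim63, Trim55 and Trim54, whose products sit in the sarcomere and tag contractile proteins for degradation, and Trim72 (MG53), which helps to reseal injured muscle membranes. The members described here are the genes whose symbol is Trim followed by a number, with or without a letter, and whose mean was at least 1 RPKM (reads per kb of gene length, scaled to the reads of the library) over 6 libraries. All 40 such symbols among the 12969 genes of the table met that mean, and 12913 genes in all did.

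The libraries came from infarct tissue of male mice about 12 weeks old, collected on day 4 after the left anterior descending artery had been tied off for good. The 3 knockout libraries carry the genotype label IRF3-/-, and the 3 wild-type libraries come from C57BL/6 mice. Irf3 encodes a transcription factor that starts the interferon response downstream of sensors of nucleic acids, and the design compares infarct transcripts with and without it. Both groups were infarcted, so the values say nothing of uninjured heart. The labels do not name the strain of the knockout mice or the deleted part of Irf3.

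Library depth was 1.48e+07 to 6.19e+07 reads, with knockout replicate 3 the deepest, and a member had a median of 487 reads per library. Markers of infarct tissue were present, with 15 of 15 cardiomyocyte, 14 of 15 macrophage and 10 of 10 fibroblast symbols in the table. None of these was at 0 in any library. The absent macrophage symbol, Adgre1, is a newer name of Emr1, which was in the table. Of neutrophil and lymphocyte symbols 5 of 8 and 2 of 10 were in the table. Irf3 itself stood at 7.40, 8.74 and 7.68 RPKM in knockout replicates 1 to 3 against 13.76, 13.87 and 11.56 RPKM, lower in each knockout library but still read and not called (log2 fold change -0.65 ± 0.18, SE, n = 3 per group; limma adjusted p = 0.344). Whether these reads fall outside a deleted stretch was not tested. Knockout replicate 2 stood apart, with a mean correlation of 0.907 with the other libraries, against 0.941 to 0.966 for the rest. Long genes read low in it: genes of at least 5000 bases had a median of -0.63 on the log2 scale relative to the wild-type mean there, against -0.0135 and -0.0877 in knockout replicates 1 and 3. The values of members that turn on that library are also given without it.

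No TRIM gene passed the test across all genes. With limma on log2(RPKM + 1) and Benjamini-Hochberg adjustment over 12913 genes, 65 genes (0.503%) were called, 46 lower in the knockout (0.356%) and 19 higher (0.147%), and none of the 40 members was among them. The smallest adjusted p of a member was 0.0761, for Trim30c. At an unadjusted limma p under 0.05, 10 members were lower and 0 were higher, where 8.4% of all tested genes passed, 5.96% lower and 2.45% higher. In 12 of the 40 members each knockout library was lower than each wild-type library, which held for 11.8% of all tested genes. In 1 member each was higher, which held for 6.61%. The median log2 fold change was -0.26 over the members and -0.09 over all tested genes.

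The low values gathered in one list, that of TRIM genes linked to interferon. Of its 21 symbols 12 were tested. All 12 had a log2 fold change below 0, as did 59.3% of all tested genes. In 10 of them the knockout lay below without overlap, as in 11.8% of all tested genes. Their median was -0.82, against -0.08 over the other 28 members. Of these 28, 2 lay below the wild type and 1 above without overlap, which is no more than the shares of all tested genes (11.8% and 6.61%). With knockout replicate 2 left out the median of the 12 interferon-linked members was -0.41, with all 12 still below 0, 10 without overlap and 0 called. The median of all tested genes was then 0.01 and 13.1% of them lay below without overlap. Trim30c, Trim34a and Trim5 had knockout means under 1 RPKM and passed the filter through the wild type. Without these 3, all 9 remaining interferon-linked members were below 0 and 8 had groups that did not overlap, with a median of -0.81, or -0.41 with knockout replicate 2 left out as well, and 10 of the 37 remaining TRIM genes lay below without overlap. The lists were drawn up with earlier results of these data known.

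**Figure D1:**
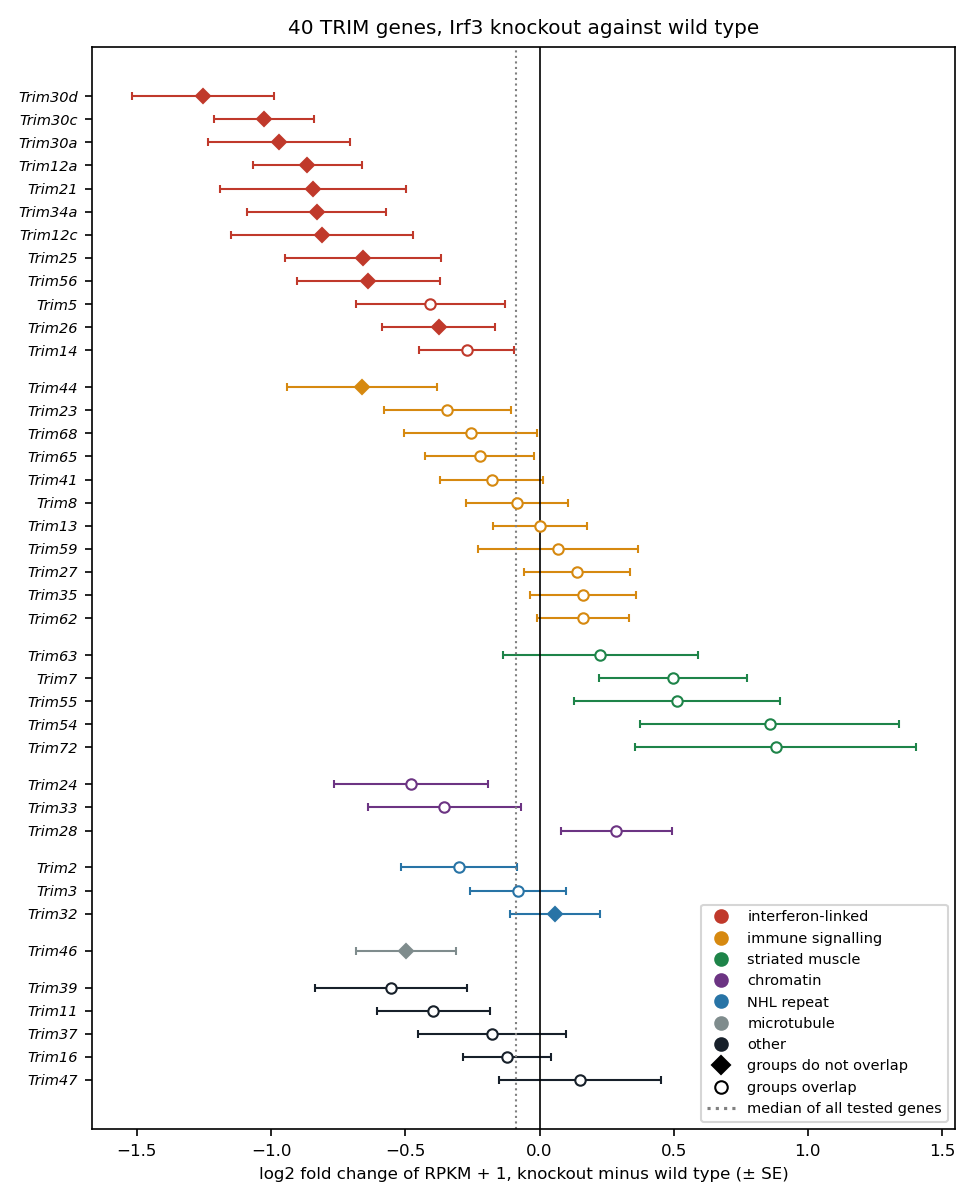
Log2 fold change of RPKM + 1, knockout minus wild type, with its SE from limma (n = 3 per group), for the 40 TRIM genes grouped by list. Filled diamonds mark genes whose groups do not overlap; the interferon-linked genes run from -1.26 for Trim30d to -0.27 for Trim14, and the striated muscle genes lie to the right of 0.

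Most of the lowest values belonged to genes that lie side by side. Trim6, Trim34a, Trim5, Trim12a, Trim34b, Trim12c, Trim30b, Trim30c, Trim30a and Trim30d follow each other in that order on chromosome 7 in the RefSeq annotation of GRCm38, and 7 of these 10 were measured. To show what their starts share, the stretches below run from 60 bases before to 30 bases after the start of each gene, and for Trim26 they surround its match. Capitals mark GAAA, any 2 bases, GAAA, searched on both strands (TTTC, any 2 bases, TTTC on the other), a spacing found in the interferon-stimulated response element to which IRF and STAT complexes bind. The sequences are from RefSeq, build GRCm38.p6, while the deposited values rest on mm9, and they are written 5′ to 3′ on the strand of the gene. Trim30a is at chr7:104465164-104465253 (minus strand), Trim30d at chr7:104507820-104507909 (minus), Trim12a at chr7:104315466-104315555 (minus), Trim12c at chr7:104353320-104353409 (minus), Trim5 at chr7:104288077-104288166 (minus), Trim34a at chr7:104244397-104244486 (plus), Trim21 at chr7:102565453-102565542 (minus) and Trim26 at chr17:36836961-36837026 (plus).
Trim30a: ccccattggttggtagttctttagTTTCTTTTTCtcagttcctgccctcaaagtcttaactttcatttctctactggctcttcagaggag
Trim30d: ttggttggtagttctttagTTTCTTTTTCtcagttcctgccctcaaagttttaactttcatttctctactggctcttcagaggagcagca
Trim12a: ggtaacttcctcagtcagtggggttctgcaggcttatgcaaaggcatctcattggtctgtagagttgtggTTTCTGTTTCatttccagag
Trim12c: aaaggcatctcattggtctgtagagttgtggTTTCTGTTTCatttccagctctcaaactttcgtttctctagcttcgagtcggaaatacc
Trim5: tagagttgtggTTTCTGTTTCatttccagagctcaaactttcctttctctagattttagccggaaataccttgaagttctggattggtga
Trim34a: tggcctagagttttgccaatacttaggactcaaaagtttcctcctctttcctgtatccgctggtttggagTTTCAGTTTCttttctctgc
Trim21: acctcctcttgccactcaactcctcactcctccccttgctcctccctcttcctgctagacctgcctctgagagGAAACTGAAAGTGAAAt
Trim26: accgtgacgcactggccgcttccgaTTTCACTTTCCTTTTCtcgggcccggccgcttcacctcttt

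Of the 40 members 31 had a promoter (250 bases before to 50 after a start) in the RefSeq table, and 9 of them (29%) held the motif. It was in 3.44% of all 32851 promoters and in 3.84% of the tested genes that had one. Among the interferon-linked members 8 of 11 held it, and among the other members 1 of 20, Trim2. Most of the 8 lie in the chromosome 7 cluster, where 6 of 7 members held it. Several of these are copies whose printed stretches repeat each other, so they are not separate cases. Outside the cluster Trim21 and Trim26 held it. In Trim30a and Trim30d the match was TTTCTTTTTC, beginning at -36 and -41 from the start. At another Trim30a start, not printed above, the same match began at position 3. In Trim5, Trim12a and Trim12c the match was TTTCTGTTTC, beginning at -49, 11 and -29. In Trim34a and Trim21 the first match began at 11 and 14, so several matches lay after the start. Trim21 and Trim26 each held a pair of overlapping matches. Trim30c, Trim25 and Trim56 had none in this window, which says only that these letters are not there, and the motif is a description of sequence, not of binding.

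On the scale of log2(RPKM + 1) the Trim30 genes had the lowest values in the family. On ratios of mean RPKM, Trim34a and Trim12a came before Trim30a, at 2.53-fold and 2.38-fold. Trim30a, an interferon-induced regulator that restrains signalling from Toll-like receptors, was read at 6.37, 2.83 and 5.22 RPKM in knockout replicates 1 to 3 and at 11.21, 9.09 and 9.75 RPKM in wild-type replicates 1 to 3. Every knockout library lay below every wild-type library, by 2.08-fold between the means (log2 fold change -0.97 ± 0.26, SE, n = 3 per group; limma adjusted p = 0.334). Trim30d stood at 2.73, 0.96 and 2.19 RPKM against 6.79, 4.97 and 5.82 RPKM. The groups were again apart, 1.96 ± 0.907 against 5.86 ± 0.911 RPKM (SD, n = 3 per group), 2.99-fold, with the lowest log2 fold change of any member, -1.26 ± 0.26 (SE; limma adjusted p = 0.131). Trim30c stood at 0.44, 0.07 and 0.53 RPKM against 1.79, 1.47 and 1.90 RPKM, 4.96-fold lower in the knockout on means (log2 fold change -1.03 ± 0.19, SE; limma adjusted p = 0.0761). It reached a mean of 1 RPKM through the wild-type libraries alone, so a difference was built into its selection, and the 3 knockout values rest on about 10, 2 and 51 reads. With knockout replicate 2 left out, Trim30a, Trim30d and Trim30c were lower by 1.73-fold, 2.38-fold and 3.55-fold (limma adjusted p = 0.161, 0.0581 and 0.0581).

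The Trim12, Trim34 and Trim5 genes, relatives of the retrovirus restriction factor TRIM5, were less alike. Trim12a stood at 1.78, 0.82 and 1.49 RPKM in the knockout against 3.01, 3.20 and 3.52 RPKM, 2.38-fold lower without overlap (log2 fold change -0.87 ± 0.20, SE, n = 3 per group; limma adjusted p = 0.203). Its neighbour Trim12c stood at 6.09, 1.61 and 4.14 RPKM against 7.12, 7.01 and 6.87 RPKM. The wild-type libraries differed little from each other, the knockout libraries spread widely below them, and the difference did not pass (-0.81 ± 0.34, adjusted p = 0.556). Trim34a stood at 1.41, 0.23 and 1.02 RPKM against 1.82, 2.41 and 2.50 RPKM (-0.83 ± 0.26, adjusted p = 0.446), also without overlap. With knockout replicate 2 left out Trim12a, Trim12c and Trim34a were at -0.69, -0.41 and -0.55 (limma adjusted p = 0.115, 0.627 and 0.388), still without overlap, and the fold of Trim12c went from 1.77 to 1.37. Trim5 was the exception in the cluster: at 1.73, 0.22 and 0.84 RPKM against 1.51, 1.22 and 1.56 RPKM its groups overlapped, and without knockout replicate 2 its log2 fold change went from -0.41 ± 0.28 (limma adjusted p = 0.563) to -0.11 ± 0.20 (limma adjusted p = 0.916).

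Reads of these genes can be shared between copies. In GENCODE M21 transcripts, 41.3% of the 50-base words of Trim34a also occurred in another gene, mainly Trim34b, as did 38.1% for Trim5, 32.7% for Trim12c and 23.5% for Trim12a, which share words with each other. The share was 8.29% for Trim30d, 6.53% for Trim30a and 0.66% for Trim30c. The words came from the longest protein-coding transcript of each gene. For Trim12a it held 1531 bases against a deposited length of 5781, and for Trim30a 3771 against 7884. The labels do not say how reads that map to several places were counted, so the values of Trim34a, Trim5, Trim12a and Trim12c are uncertain. The shares do not measure by how much, and the rest of the Trim30a length was not examined.

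The list also held 5 members outside the cluster, with log2 fold changes from -0.84 to -0.27. Trim21, a cytosolic antibody receptor that targets antibody-coated virus for degradation, stood at 5.58, 1.51 and 4.81 RPKM in the knockout against 6.85, 7.58 and 7.24 RPKM. The knockout libraries lay below the wild type without overlap, 1.82-fold on means and 1.39-fold without knockout replicate 2 (log2 fold change -0.84 ± 0.35, SE, n = 3 per group, and -0.41 ± 0.13; limma adjusted p = 0.556 and 0.441). Trim25, the ligase known for activating the RNA sensor RIG-I, was the most abundant of the list, at 14.26, 6.43 and 12.74 RPKM against 20.15, 15.08 and 16.98 RPKM. Knockout replicate 1 was close to wild-type replicate 2, and the log2 fold change was -0.66 ± 0.29 (limma adjusted p = 0.556), or -0.34 ± 0.16 (limma adjusted p = 0.714) without knockout replicate 2. Trim56, which acts in antiviral signalling, stood at 5.24, 2.22 and 4.56 RPKM against 6.66, 6.82 and 6.02 RPKM, and Trim26 at 5.47, 3.51 and 5.54 RPKM against 6.04, 7.09 and 6.32 RPKM. Both were apart without overlap, at -0.64 ± 0.27 and -0.38 ± 0.21 (adjusted p = 0.556 each), and at -0.35 ± 0.13 and -0.20 ± 0.13 without knockout replicate 2 (adjusted p = 0.582 and 0.797). Trim14, an adaptor at the mitochondrial signalling protein MAVS, was at 1.57, 1.57 and 1.71 RPKM against 2.62, 2.24 and 1.68 RPKM. Its knockout libraries were nearly level and wild-type replicate 3 fell among them (-0.27 ± 0.18, adjusted p = 0.556).

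**Figure D2:**
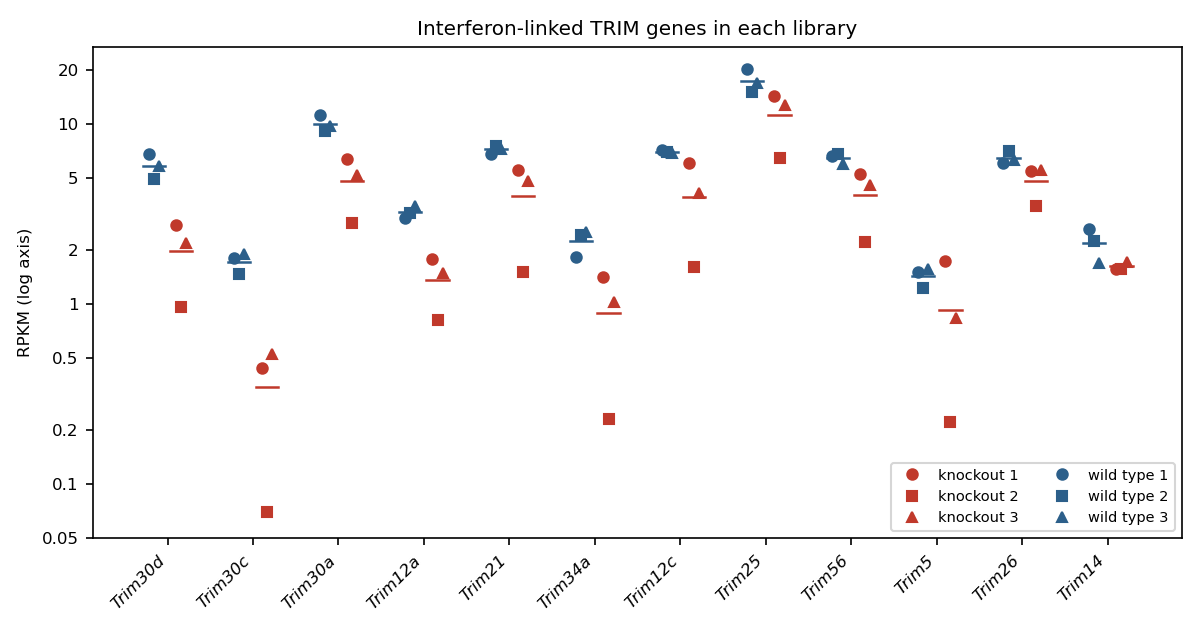
RPKM of the 12 interferon-linked TRIM genes in each of the 6 libraries on a log axis, with horizontal bars at the group means. In 10 genes all red knockout points lie below all blue wild-type points; Trim5 and Trim14 overlap, and knockout replicate 2 (red squares) is the lowest knockout point in 11 genes and level with replicate 1 in Trim14.

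Chromosome 7, which also carries Irf3, held 12 of the 40 members, 7 of them in the cluster. The other 5 did not share one direction: Trim21 was at -0.84, Trim68 at -0.26, Trim3 at -0.08, Trim28 at 0.29 and Trim72 at 0.88 on the log2 scale. Of these 5 only Trim21 had groups that did not overlap. The members of other chromosomes that lay below without overlap were Trim25, Trim26, Trim56, Trim44 and Trim46, on chromosomes 11, 17, 5, 2 and 3. The part of position relative to Irf3 in these values was not tested.

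Relative to the wild-type mean, the interferon-linked members had a median of -0.31, -1.32 and -0.57 in knockout replicates 1 to 3 and of 0.04, -0.0056 and -0.01 in wild-type replicates 1 to 3. The 7 genes of the cluster had medians of -0.58, -1.39 and -0.77. The 14 tested macrophage genes, none of them called, had a median of 0.12, -0.89 and -0.22 in the knockout and of 0.50, -0.22 and -0.27 in the wild type, and their summed level ran from 2253 to 5803 RPKM and from 3407 to 6236 RPKM. The interferon-linked median was below that of every wild-type library in each knockout library. The macrophage median was the lowest of all in knockout replicate 2, where the interferon-linked median was lowest too. It lay between wild-type replicates 2 and 3 in knockout replicate 3 and above both in knockout replicate 1. In bulk tissue fewer cells of a type and less RNA per cell cannot be told apart, and the part of cell composition in these differences was not tested. None of the 10 fibroblast genes was called, 3 lay below without overlap and 9 were below 0. Over all tested genes 11.8% lay below without overlap and 59.3% were below 0. The summed level of the fibroblast genes, most of it from collagen genes, was 3304 to 4516 RPKM in the knockout and 5321 to 5738 RPKM in the wild type, with medians of -0.20, -0.91 and -0.19 in knockout replicates 1 to 3. Of 8 mesothelial genes none was called and 1 lay below without overlap, near the share of all tested genes. All 8 were below 0 (median -1.04), with library medians of -0.52, -1.81 and -0.89 in the knockout and of 0.80, -0.95 and 0.11 in the wild type. Their summed level was 30.5 to 77.5 RPKM against 57.4 to 203 RPKM. Of 10 lymphocyte markers only Cd4 and Gzma were in the table, Cd4 at 0.69 to 0.93 against 1.32 to 1.34 RPKM and Gzma at 0.41 to 0.65 against 1.13 to 1.49 RPKM, both lower in each knockout library.

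**Figure D3:**
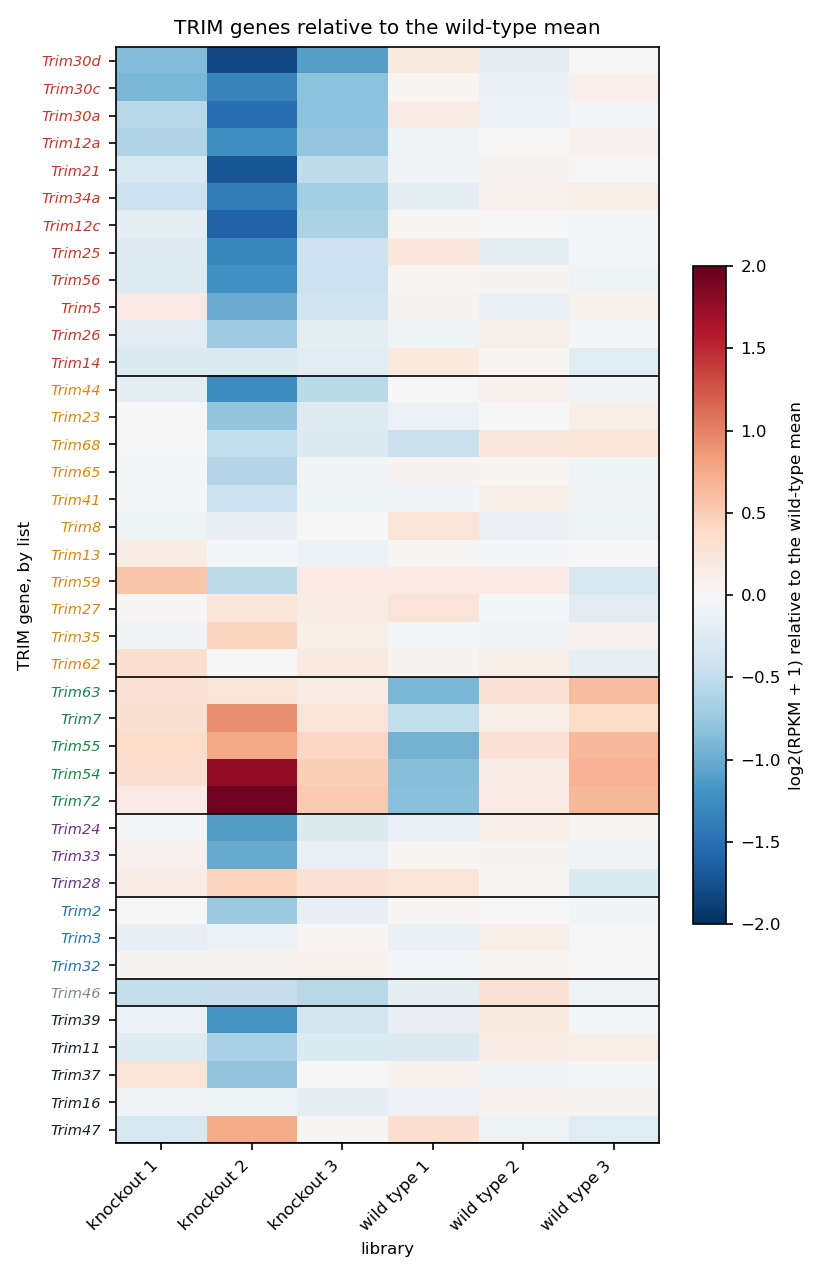
Level of the 40 TRIM genes (rows, by list) in each library (columns) as log2(RPKM + 1) relative to the wild-type mean, blue lower and red higher. The interferon-linked rows at the top are blue in the knockout columns, with Trim5 in replicate 1 an exception, and the striated muscle rows are blue in wild-type replicate 1. Trim72 and Trim54 are darkest red in knockout replicate 2.

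Partners of the interferon-linked proteins held 2 called genes, both lower, where 0.356% of all tested genes were called lower. Of 26 listed 25 were tested, and Isg15 and Irf7 were lower in the knockout, 5.94-fold and 6.15-fold (limma adjusted p = 0.00227 and 0.00367), both well-known interferon-stimulated genes that were known from earlier results of these data. Their differences of -2.42 and -2.39 on the log2 scale lie beyond that of any TRIM gene. For scale, 16 of 24 reference interferon-stimulated genes, which include both, were called lower (median -1.92). No partner was called higher, and the median of the list was -0.52. Relative to the wild-type mean its library medians were -0.06, -1.09 and -0.27 in knockout replicates 1 to 3, so much of the difference lay in knockout replicate 2. In 9 of the 25, against 11.8% of all tested genes, the knockout lay below without overlap. Among these, and chosen after their values were seen, were 2 partners of Trim25: Ddx58, which encodes RIG-I, at 7.13, 2.41 and 6.72 against 12.47, 12.90 and 12.06 RPKM, and Zc3hav1, the antiviral protein ZAP, at 11.47, 4.04 and 10.42 against 14.67, 12.65 and 12.12 RPKM (adjusted p = 0.361 and 0.556). Mavs and Vcp were the only members above 0, at 0.05 ± 0.23 and 0.10 ± 0.17 (adjusted p = 0.921 and 0.791).

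TRIM and TRIM-like proteins with other gene names gave no call either. All 7 tested of 11 had values below 0, as did 59.3% of all tested genes, with a median of -0.43. In 3 of them (Pml, Rnf135 and Mid1), against 11.8% of all tested genes, the knockout lay below the wild type without overlap. Relative to the wild-type mean the library medians were -0.25, -0.72 and -0.25 in knockout replicates 1 to 3. Pml (TRIM19), the organiser of nuclear bodies and an interferon-induced gene, stood at 6.43, 5.06 and 7.16 RPKM against 9.70, 9.05 and 8.31 RPKM (log2 fold change -0.48 ± 0.19, SE, n = 3 per group; limma adjusted p = 0.556). Fsd1l was at -0.48 ± 0.29 and Mid2 at -0.43 ± 0.26 on the same scale (limma adjusted p = 0.556 each), with groups that overlapped. With knockout replicate 2 left out, Pml, Fsd1l and Mid2 were at -0.36, -0.40 and -0.21 (limma adjusted p = 0.551, 0.835 and 0.863).

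The 5 striated muscle genes included the pair with the highest means of the family, Trim72 and Trim54, and one of the lower ones, Trim7 at 1.81 RPKM. Trim72 had the highest mean of all members, 127 RPKM, and stood at 87.87, 304.44 and 113.63 RPKM in the knockout against 43.43, 88.09 and 125.17 RPKM. Knockout replicate 2 was far above all others, wild-type replicate 1 was lowest, and the remaining libraries of both groups overlapped (log2 fold change 0.88 ± 0.52, SE, n = 3 per group; limma adjusted p = 0.556). Trim54 (MuRF3) was likewise highest in knockout replicate 2 and lowest in wild-type replicate 1, at 38.74, 108.10 and 43.29 against 16.60, 34.40 and 50.68 RPKM (0.86 ± 0.48, adjusted p = 0.556). Trim55 (MuRF2) stood at 22.81, 29.95 and 23.36 against 8.54, 21.48 and 27.91 RPKM (0.51 ± 0.38, adjusted p = 0.573). Trim63 (MuRF1), a marker of muscle protein breakdown, was nearly level over the knockout libraries at 29.61, 28.73 and 26.59 RPKM, within the wild-type range of 12.34, 29.69 and 37.29 RPKM (0.23 ± 0.36, adjusted p = 0.767). Trim7, which binds glycogenin, stood at 1.81, 3.31 and 1.73 against 0.61, 1.5 and 1.92 RPKM (0.50 ± 0.28, adjusted p = 0.556).

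All 5 muscle members had a log2 fold change above 0, with a median of 0.51, and in all 5 the groups overlapped. Leaving out knockout replicate 2 took Trim72 and Trim54 to 0.35 and 0.40, and leaving out wild-type replicate 1 took them to 0.46 and 0.43, Trim55 from 0.51 to 0.04 and Trim7 from 0.50 to 0.25, and turned Trim63 to -0.23. The median of the 5 was 0.35 without the first and 0.25 without the second of these libraries. The 15 cardiomyocyte genes had medians of 0.55, 1.09 and 0.56 in knockout replicates 1 to 3 and of -0.80, 0.16 and 0.77 in wild-type replicates 1 to 3, and their summed level ran from 17825 to 28431 RPKM in the knockout and from 8259 to 23031 RPKM in the wild type. Of 8 skeletal muscle markers 4 were in the table, and they did not share one direction in knockout replicate 2. Acta1, an actin of skeletal muscle and stressed heart, stood at 5012 RPKM there against 127 to 572 RPKM elsewhere. Ckm, also among the cardiomyocyte genes, stood at 1005 RPKM there against 91.7 to 441 RPKM elsewhere. The fast skeletal muscle genes Mylpf and Tnnt3 were at 0.44 and 4.97 RPKM there, the lowest of the 6 libraries, though Tnnt3 was close to the 5.13 RPKM of knockout replicate 1. The part of muscle content in the values of these members was not tested. Of 14 partners and targets of the muscle TRIM proteins none was called (median 0.16): Ckm, the muscle creatine kinase, was at 1.69 ± 0.53, Myl2 at 0.95 ± 0.42 and Tnni3 at 0.83 ± 0.39 (limma adjusted p = 0.454, 0.556 and 0.556), and in Ckm all knockout libraries lay above the wild type.

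**Figure D4:**
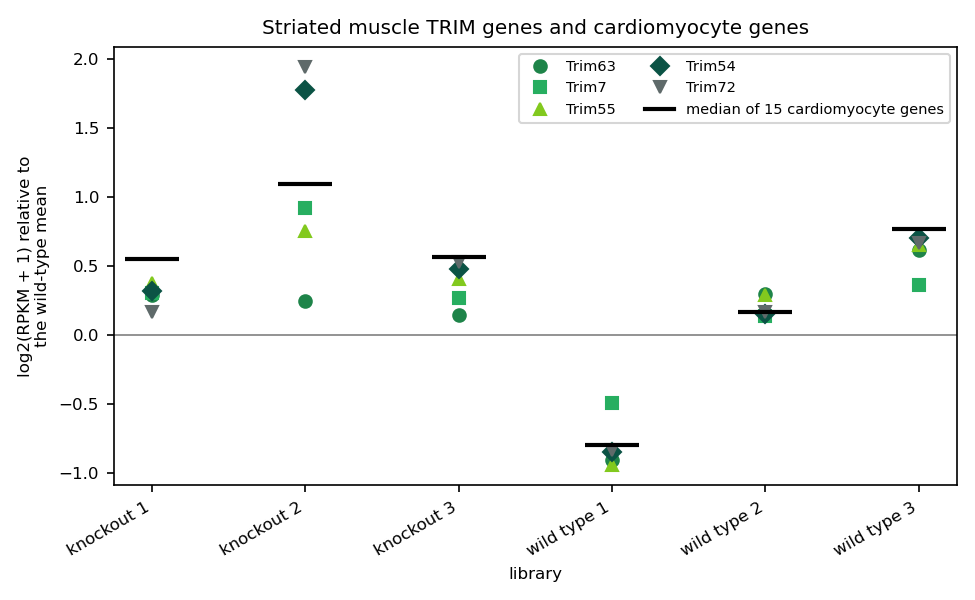
Striated muscle TRIM genes in each library as log2(RPKM + 1) relative to the wild-type mean, with black bars at the median of 15 cardiomyocyte genes. All 5 genes lie below 0 with the bar in wild-type replicate 1 and above 0 in the other libraries; in knockout replicate 2 Trim72 and Trim54 reach 1.94 and 1.78, above its bar at 1.09, and Trim63 stays at 0.25.

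The 11 members of immune signalling outside the interferon list had a median of -0.08, between -0.66 and 0.16. Trim44, which stabilises signalling proteins against degradation, gave the lowest, at 16.08, 6.98 and 12.31 RPKM against 18.12, 19.51 and 17.32 RPKM, without overlap (-0.66 ± 0.28, SE, n = 3 per group, limma adjusted p = 0.556; -0.36 ± 0.16, limma adjusted p = 0.667, without knockout replicate 2). Trim46, an organiser of axonal microtubules, was the one member outside these lists to lie below without overlap, at 1.68, 1.72 and 1.56 RPKM against 2.29, 3.58 and 2.48 RPKM. Unlike the genes above it was level over the knockout libraries, and its log2 fold change of -0.50 ± 0.19 was -0.51 ± 0.18 without knockout replicate 2 (limma adjusted p = 0.556 and 0.495). Trim32, a ligase mutated in a limb-girdle muscular dystrophy, was the one member above without overlap, but by little: 8.71, 8.70 and 8.83 RPKM against 8.14, 8.58 and 8.39 RPKM (0.06 ± 0.17, adjusted p = 0.874).

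The NHL-repeat genes Trim2 and Trim3 and the 5 members placed in none of the named lists, Trim47 among them, lay between -0.55 and 0.15 with overlapping groups. Neither of the 2 erythroid TRIM genes was in the table. Of the chromatin members, Trim28 (KAP1), the corepressor of zinc finger proteins that silences retroelements, stood at 41.03, 50.13 and 45.37 RPKM against 44.16, 37.51 and 30.57 RPKM, with overlapping groups (0.29 ± 0.21, SE, n = 3 per group; limma adjusted p = 0.566). Its relatives Trim24 and Trim33 were at 5.68, 2.17 and 4.69 against 5.19, 6.5 and 6.02 RPKM and at 5.48, 2.03 and 4.53 against 5.20, 5.31 and 4.80 RPKM. In both only knockout replicate 2 was far from the rest, and without it their log2 fold changes went from -0.48 and -0.35 to -0.16 and -0.03. Trim47, the third most abundant member, stood at 31.59, 66.93 and 40.09 against 50.41, 36.69 and 33.33 RPKM, and its value went from 0.15 ± 0.30 (limma adjusted p = 0.812) to -0.15 ± 0.22 (limma adjusted p = 0.909) without that library.

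Knockout replicate 2 held the lowest value of 24 of the 40 members, and 13 of them stood more than 1 below the wild-type mean on the log2 scale there, against 0 in knockout replicate 1 and 1, Trim30d, in knockout replicate 3. The 13 were Trim12a, Trim12c, Trim21, Trim25, Trim30a, Trim30c, Trim30d, Trim34a and Trim56 of the interferon-linked list, and Trim24, Trim33, Trim39 and Trim44. Across the 40 genes the level in that library had a correlation of -0.39 with log2 gene length, against -0.05 and -0.20 in knockout replicates 1 and 3, as a description of genes that share a library. In wild-type replicates 1 to 3 the correlation was 0.35, -0.12 and -0.40, so among the members its size was not particular to knockout replicate 2. Over all tested genes it was -0.29 in knockout replicate 2 and ran from -0.15 to 0.21 in the other libraries. With the length trend of each library removed, an alternative chosen after seeing the data, the interferon-linked members kept values below 0 in all 12 cases with a median of -0.68, Trim33 stood at -0.07, and Trim30c was called lower (limma adjusted p = 0.0385) while Trim30d was not (adjusted p = 0.0588).

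**Figure D5:**
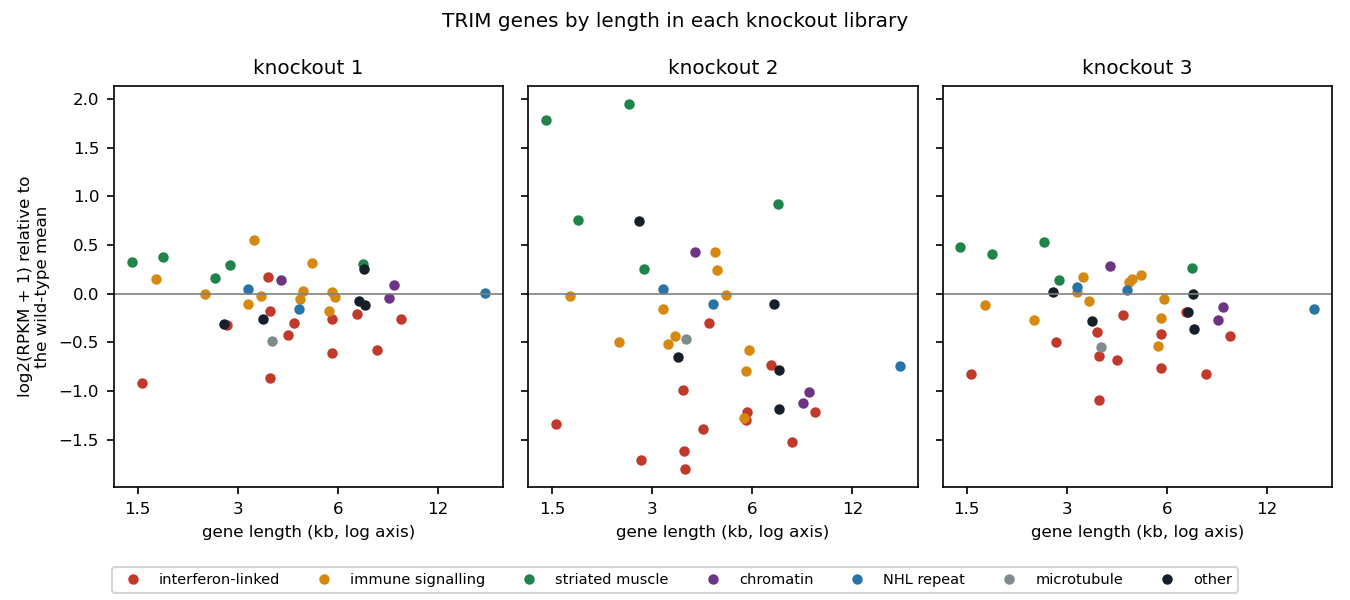
Level of the 40 TRIM genes in each knockout library, as log2(RPKM + 1) relative to the wild-type mean, against gene length in kb on a log axis, coloured by list. In knockout replicate 2 the longest genes lie below 0 and all 5 muscle genes above it, and the red interferon-linked points lie below 0 in all 3 panels except Trim5 in knockout replicate 1.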

How the data were processed

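RNA-seq of 6 libraries, 3 per group, was deposited by the authors as RPKM per gene, rounded to 2 decimals, with a gene length. The submitters' processing notes list HTSeq 0.6.0, edgeR 3.8.6, STAR 2.3.0, Picard 1.100 and, last, SAMtools 0.1.18.0, with NCBIM37 (mm9), without settings. In 5 lines split gene names were repaired. Depth came from the steps between low RPKM values times length; all low values used fell within 0.2 reads of a whole number.

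limma 3.58.1 (R 4.3.3; eBayes with trend, two-sided, threshold 0.05) was run on log2(RPKM + 1) for genes whose mean reached 1 RPKM, after it was checked on simulated data. The log2 fold change is on this scale and understates the change of low genes; folds are ratios of mean RPKM. Nothing in the labels says that libraries are separate animals, so p-values measure the spread between samples. An exact permutation test of 3 against 3 cannot go below p = 0.1. In the simulated data 21 of 100 genes changed 2-fold and 79 of 100 genes changed 4-fold were called, with 5 false calls. Most 2-fold changes were thus missed. The simulated noise was independent between genes and lacked the length shift of knockout replicate 2.

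Members and lists were chosen with earlier results of these data known. Named genes were Irf3, members called or without overlap, the 10 members with the smallest p, the 3 most abundant, the muscle, chromatin and cluster members, and from the other 3 lists the called genes or else the 3 with the smallest p; others were named after their values were seen. Alternatives were 2 pseudocounts, 2 filters, median-of-ratios scaling, no trend, array weights, a replicate block, a length correction and leaving out each library.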

Additional observations from a re-analysis of the deposited data

How the results depend on the processing

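No TRIM gene was called with a pseudocount of 0.1 or 0.5 RPKM, without the filter, with a mean of at least 5 RPKM (23 members tested), with median-of-ratios scaling, without the mean-variance trend or with any 1 library left out. Median-of-ratios scaling moved the median of all genes from -0.09 to 0.02; the 12 interferon-linked values stayed below 0 there (median -0.74). The filter at 5 RPKM left 22 genes lower and 12 higher over all genes; leaving out a library gave 15 to 69 lower and 6 to 27 higher. Array weights (gene-by-gene, since limma's default did not converge) ranged from 0.103 for knockout replicate 2 to 6.36 for knockout replicate 3. They called 14 TRIM genes lower among 1751 lower and 1209 higher genes and put Trim63 at -0.0938. With the length trend removed 1 TRIM gene was lower. Without 1 library Trim47 ran from -0.15 to 0.38 and Trim63 from -0.23 to 0.53. A replicate block called 2 TRIM genes lower (Trim30c and Trim30d, limma adjusted p = 0.00978 and 0.00755) among 187 lower and 63 higher genes, but same-numbered libraries were not paired by their deviations (correlations 0.129, -0.0978 and -0.102), and only knockout replicate 1 correlated best with its own number. Rounding and few reads limit Trim30c, Trim34a and Trim5 most. The causes of these shifts were not tested.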
